A study of Mus musculus with 6 samples.

Results

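Costimulatory and coinhibitory genes were read on 6 mouse expression arrays: Cd80, Cd86, Cd40, Cd48, Cd83, Cd274, Pdcd1lg2 and Icosl. All probe sets annotated to 1 of these 8 genes alone were taken, which gave 15 probe sets of 45037 that are not array controls, for 8 of 18193 named genes. Cd80 had 4 probe sets, Cd40 3, Cd86 and Icosl 2 each, and Cd48, Cd83, Cd274 and Pdcd1lg2 1 each. Total RNA from each sample was labelled with biotin and measured on 1 array, and the study set follicular dendritic cells (FDC) beside bone marrow-derived dendritic cells (BMDC). Of the arrays, 2 held BMDC, dendritic cells derived from mouse bone marrow, and 2 held FDC kept in culture, the stromal cells that display antigen to B cells in the follicle. A single array held FL-Y, an FDC-like cell line transformed with SV40, and another held FL-Y after activation with an antibody against the lymphotoxin beta receptor. The labels give no strain, age, culture time or stimulus for the BMDC and no dose or time for the antibody. They do not say whether the arrays of a group came from separate cultures or animals, so each p-value below is set against a spread that could be purely technical.

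T cells need a second signal beside antigen, and antigen-presenting cells give it through membrane proteins of the B7 family. Cd80 and Cd86 bind Cd28, which stimulates, and Ctla4, which restrains, while Icosl binds Icos on helper T cells. Cd274 (PD-L1) and Pdcd1lg2 (PD-L2) bind the inhibitory receptor Pdcd1 (PD-1). Cd48 is a member of the SLAM family and binds Cd244a and, in mice, Cd2. Cd83 is a surface protein of mature dendritic cells that stabilises MHC class II and Cd86 at the membrane. Cd40 is not a ligand: it is the receptor of the TNF family through which Cd40lg on T cells activates dendritic cells and B cells. In dendritic cells several of these genes are known to rise on maturation. FDC are best known for holding antigen for B cells rather than for presenting it to T cells.

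The regions before 4 of the genes are shown because they stand for both outcomes described below: Cd48 and Pdcd1lg2 stood far lower in FDC on both arrays, and Cd274 and Cd80 did not pass the test. Cd274 and Pdcd1lg2 are also direct neighbours on the same chromosome, with 0 annotated genes between them and 43.5 kb between their promoters. Each sequence is the 250 bases before the RefSeq start of the gene (GRCm38.p6), written 5′ to 3′ on the strand of the gene. Capitals mark matches on either strand to 5 motifs: GAGGAA (core of PU.1 sites), TGANTCA (AP-1), a form of the NF-kB site (GGG and TTTCC with any 2 bases between them), the interferon-stimulated response element (TTTC and TTTC with any 2 bases between them) and TTCNNNGAA (gamma-activated site).
Cd48, chr1:171681742-171681991, strand +: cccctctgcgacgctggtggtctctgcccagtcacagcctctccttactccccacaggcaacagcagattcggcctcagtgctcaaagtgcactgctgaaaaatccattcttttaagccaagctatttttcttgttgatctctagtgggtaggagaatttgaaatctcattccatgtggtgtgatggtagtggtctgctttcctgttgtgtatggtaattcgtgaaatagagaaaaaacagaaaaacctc
Pdcd1lg2, chr19:29410669-29410918, strand +: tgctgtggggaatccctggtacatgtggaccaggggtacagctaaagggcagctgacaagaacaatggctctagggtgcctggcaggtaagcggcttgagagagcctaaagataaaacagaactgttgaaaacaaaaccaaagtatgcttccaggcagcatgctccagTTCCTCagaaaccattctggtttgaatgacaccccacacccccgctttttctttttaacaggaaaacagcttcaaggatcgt
Cd274, chr19:29367188-29367437, strand +: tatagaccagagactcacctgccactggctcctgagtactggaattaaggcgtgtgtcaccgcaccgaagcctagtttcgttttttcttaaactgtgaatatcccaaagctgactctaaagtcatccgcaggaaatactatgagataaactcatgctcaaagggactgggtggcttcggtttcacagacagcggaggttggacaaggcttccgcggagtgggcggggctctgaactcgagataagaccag
Cd80, chr16:38458683-38458932, strand +: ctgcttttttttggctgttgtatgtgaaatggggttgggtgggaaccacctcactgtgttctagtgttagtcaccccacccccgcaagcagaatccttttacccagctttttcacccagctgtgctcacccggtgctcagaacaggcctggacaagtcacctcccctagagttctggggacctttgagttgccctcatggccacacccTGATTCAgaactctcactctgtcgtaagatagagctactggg
The Pdcd1lg2 sequence held 1 match to GAGGAA, on the minus strand and 82 bases before the start. The Cd80 sequence held 1 match to TGANTCA, 42 bases before the start. No match to any of the 5 motifs was found in the sequences of Cd48 and Cd274. Among 32851 promoters of the same length, 23.3% held GAGGAA, 6.75% TGANTCA, 1.41% the NF-kB form, 2.98% the interferon element and 7.02% TTCNNNGAA. Promoter sequences were at hand for 5 of the 8 genes, Icosl being the fifth. A match is a stretch of letters and not a shown binding site.

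The deposited values are linear signals, 1 for each probe set and array, which the authors had scaled to a common trimmed mean of 500. The 20th percentile of each array, between 8.7 and 15.4, served as a mark of background level, and it is not a measured limit of detection. The marker genes partly bore out the labels. The BMDC arrays carried Itgax, the CD11c integrin of dendritic cells, at 19951 and 18428, but also the macrophage marker Adgre1 at 8197 and 8172. The FDC arrays carried fibroblast collagens, with Col1a1 at 27728 and 12786. The defining FDC marker Cr2, a complement receptor, stood at 120 and 4.1 on them. Vcam1, an adhesion molecule of FDC, was at 6959 and 5764 (108 and 875 in BMDC), and Cxcl13, the chemokine of follicles, at 1288 and 64.5 (50.9 and 36.4 in BMDC). Neither of these differences passed the test described below (adjusted p = 0.0566 and 0.331 with limma). Leukocyte RNA was present on the FDC arrays, with Ptprc (CD45) at 823 and 423 and the T cell receptor chain Cd3d at 898 and 489. On the FL-Y and activated FL-Y arrays Ptprc was at 12.8 and 4.1, and Col1a1 was at 31443 and 21747. Of the marker lists, 4 of 7 tested dendritic cell genes and 7 of 8 macrophage genes were called lower in FDC. Called higher were 6 of 8 fibroblast genes and 3 of 6 mast cell genes. Of 10 FDC genes 3 were called lower and 0 higher. The 3 were Fcgr2b (199 and 198 in FDC, 32488 and 23877 in BMDC), Mfge8 (5146 and 6484 against 27357.5 and 25082) and Clu (222 and 71.2 against 3476 and 5286). Counts of marker lists, here and below, stand beside 5.4% of 12750 genes called lower and 5.87% higher. In such bulk samples fewer cells of a type and less RNA per cell cannot be told apart.

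FDC were first compared with BMDC. Cd48, Cd83, Pdcd1lg2 and Cd86 were lower in FDC, by 56.0-fold, 50.5-fold, 37.4-fold and 21.8-fold. Cd274, Icosl, Cd80 and Cd40 did not pass the test, and Cd274 and Cd40 reached signals of 1268 and 1283 on FDC array 2. Folds and differences are on the scale log2(signal + 14.2), where the added 14.2 steadies dim signals and understates the change of dim genes. Tests were made with limma over 27022 probe sets whose mean over the 4 arrays passed a filter at a signal of 46.4, with Benjamini-Hochberg adjustment and a threshold of 0.05. Of the 15 probe sets, 12 passed this filter. Of those 12, 5 were called lower in FDC and 0 higher, beside 8.93% of all tested probe sets called, 4.09% lower and 4.84% higher. Read by the probe set with the highest mean of each gene, 4 of 8 genes were called lower and 0 higher, beside 5.4% and 5.87% of 12750 genes. At an unadjusted p under 0.05, 7 of the 12 probe sets were lower and 0 higher, beside 11.5% and 12% of all tested probe sets. The median difference of the 8 genes was -3.43, against -0.03 for all genes tested. A probe set can pass the filter through the BMDC arrays alone, so the count over those that passed describes them and supports nothing further.

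**Figure D1:**
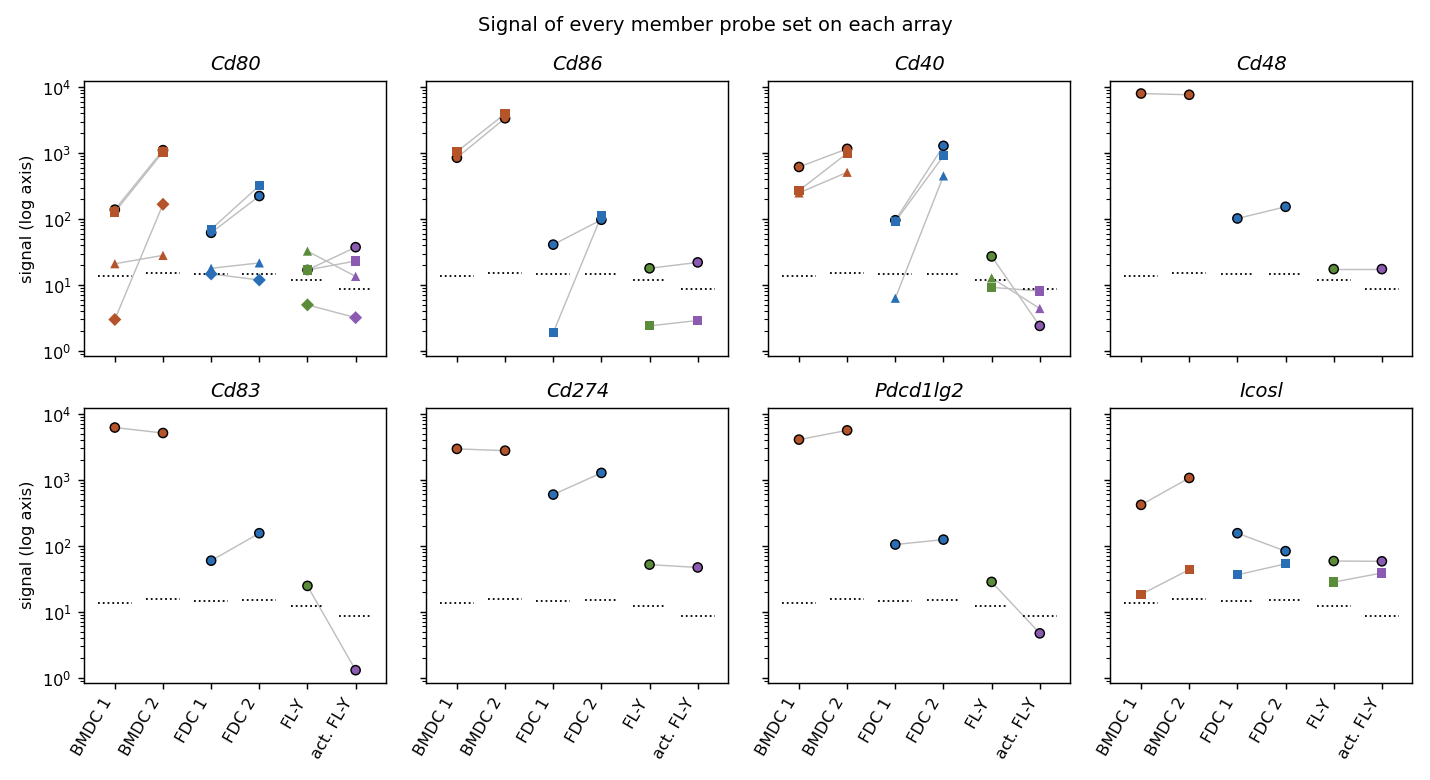
Signal (log axis) of every probe set of the 8 genes on the BMDC, FDC, FL-Y and activated FL-Y arrays. Each point is 1 array, shapes separate the probe sets of a gene, black outlines mark the probe set with the highest mean, grey lines join arrays of the same kind of cell, and dotted lines are the 20th percentile of each array. Cd48, Cd83 and Pdcd1lg2 lie between 4051 and 7961 on the BMDC arrays and between 59.3 and 154.6 on the FDC arrays, while Cd274 and Cd40 come nearer on FDC array 2.

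The Cd28 and Ctla4 ligands are taken first. Cd86 (probe set 1420404_at) had signals of 848 and 3357 on BMDC arrays 1 and 2 and of 40.9 and 97.3 on FDC arrays 1 and 2. Both FDC arrays lay below both BMDC arrays. The mean was 2103 ± 1774 (SD, n = 2) in BMDC and 69.1 ± 39.9 (SD, n = 2) in FDC, and the log2 difference was -4.44 ± 0.77 (SE; adjusted p = 0.0281 with limma). Its other probe set, 1449858_at, had signals of 1049 and 3924 in BMDC and of 1.9 and 111.6 in FDC, and differed by -5.51 ± 1.13 (SE; adjusted p = 0.0458 with limma). The signal of 1.9 is below background level, so the size of that difference depends on the offset. Both calls of Cd86 were lost without BMDC array 2 (adjusted p = 0.0569 and 0.130) or FDC array 1 (0.0828 and 0.0738), and that of 1449858_at also without BMDC array 1 (0.0549). They were lost without the filter as well (0.0585 and 0.0853), and with a floor in place of the offset (0.0556 and 0.130).

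Cd80 did not pass the test with either of its tested probe sets. Probe set 1451950_a_at gave 138.5 and 1104 on the BMDC arrays and 61.8 and 223 on the FDC arrays. BMDC array 1 lay between the FDC arrays, so the groups overlapped. The log2 difference was -1.62 ± 1.07 (SE; adjusted p = 0.442 with limma), with a 95% interval from -4.33 to 1.09. Probe set 1432826_a_at gave 127.6 and 1039 in BMDC and 69.8 and 320 in FDC, a difference of -1.21 ± 1.13 (SE; adjusted p = 0.596 with limma). The other 2 probe sets did not pass the filter. Of these, 1454372_at stayed between 13.5 and 32.6 on all 6 arrays, and 1427717_at reached 167 on BMDC array 2 but lay at 3.0 on BMDC array 1. Icosl, the ligand of Icos, had 416 and 1063 on the BMDC arrays and 154.7 and 82.7 on the FDC arrays with probe set 1419212_at. The groups did not overlap, and the log2 difference of -2.41 ± 0.60 (SE; adjusted p = 0.0741 with limma) had a 95% interval from -3.92 to -0.91. With an offset at the 40th percentile Icosl was called (-2.11, adjusted p = 0.0488). Its other probe set, 1426087_at, lay between 18.3 and 53.1 on all arrays, was not tested and was not lower in FDC, so the 2 probe sets disagree.

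The ligands of Pdcd1 are neighbouring genes, but they did not stand alike. Pdcd1lg2 (1450290_at) had signals of 4051 and 5596 on the BMDC arrays and of 104 and 124 on the FDC arrays. The means were 4824 ± 1092 (SD, n = 2) and 114 ± 13.8 (SD, n = 2), and the difference was -5.22 ± 0.40 (SE; adjusted p = 0.00354 with limma). Cd274 (1419714_at) had 2930 and 2754 on the BMDC arrays and 595 and 1268 on the FDC arrays. All 4 signals of Cd274 were far above background level, and both FDC arrays lay below both BMDC arrays. Its difference of -1.69 ± 0.49 (SE; adjusted p = 0.109 with limma) did not pass the threshold, and its 95% interval ran from -2.93 to -0.45. The 95% interval for Pdcd1lg2 ran from -6.22 to -4.22 and so did not meet that of Cd274, but the difference between the 2 genes was not itself tested. On FDC arrays 1 and 2 the signal of Cd274 was 20.9% and 44.6% of the BMDC mean, and that of Pdcd1lg2 was 2.16% and 2.56%.

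Cd48, Cd83 and Cd40 are the genes outside the B7 family. Cd48 (1427301_at) had 7961 and 7625 on the BMDC arrays and 102 and 153 on the FDC arrays, a log2 difference of -5.81 ± 0.40 (SE; adjusted p = 0.00303 with limma). Cd83 (1416111_at) had 6170 and 5098 on the BMDC arrays and 59.3 and 155 on the FDC arrays, a difference of -5.66 ± 0.52 (SE; adjusted p = 0.00505 with limma). For both genes every FDC signal was under 3% of the BMDC mean, at 1.31% and 1.97% for Cd48 and 1.05% and 2.74% for Cd83. The FDC arrays disagreed in Cd40. Probe set 1460415_a_at gave 614 and 1156 in BMDC and 95.8 and 1283 in FDC, so FDC array 2 stood above both BMDC arrays and FDC array 1 below them. With the other probe sets of Cd40 FDC array 1 was again lowest, but FDC array 2 lay between the BMDC arrays: 1439221_s_at gave 269.5 and 992 in BMDC and 91.8 and 904 in FDC, and 1449473_s_at gave 248 and 510 in BMDC and 6.3 and 450 in FDC. The difference of 1460415_a_at was -1.18 ± 1.18 (SE; adjusted p = 0.618 with limma), with a 95% interval from -4.16 to 1.79. Without FDC array 1 its sign turned (0.60), and without FDC array 2 it was -2.96 (adjusted p = 0.0551), while 1449473_s_at was then called (adjusted p = 0.0272).

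**Figure D2:**
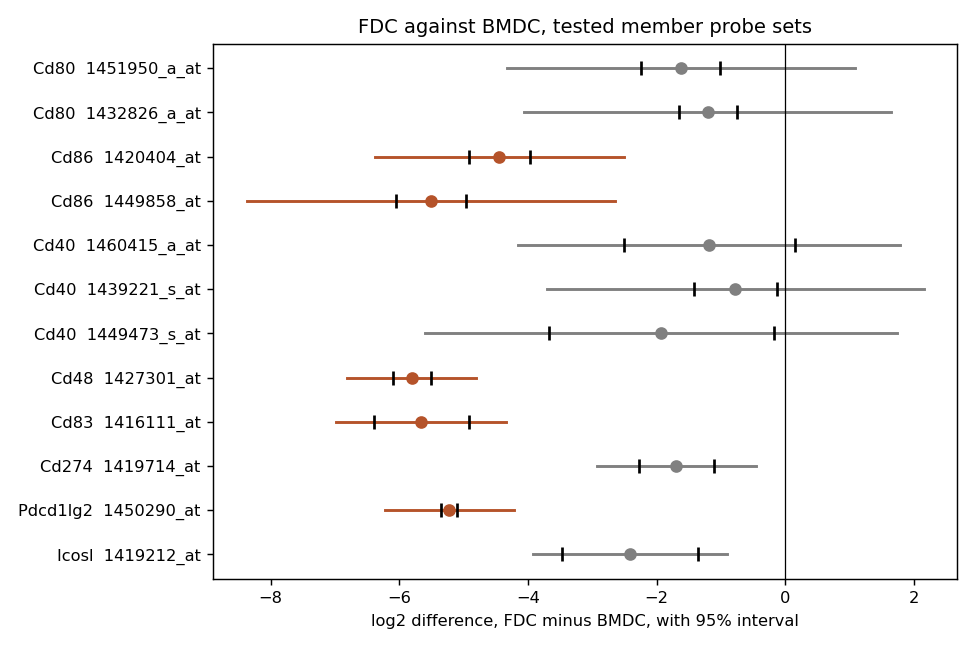
Log2 difference, FDC minus BMDC, for the 12 tested probe sets, with the 95% interval from limma as a line and the differences of FDC from BMDC by array number as black ticks. Red marks the 5 probe sets called at an adjusted p under 0.05, of Cd86, Cd48, Cd83 and Pdcd1lg2; the interval of Pdcd1lg2 runs from -6.22 to -4.22 and that of Cd80 (1451950_a_at) from -4.33 to 1.09.

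The FDC signals were then set beside markers that all leukocytes share. Of 7 such markers, 7 were called lower in FDC, and their signal on single FDC arrays was between 0.106% and 15.8% of the BMDC mean. Their summed signal was 4.97% of the BMDC mean on FDC array 1 and 4.01% on FDC array 2. Cd48, Cd83, Pdcd1lg2 and Cd86 (1420404_at), at 1.05% to 4.63%, lay inside the range of the leukocyte markers. Cd274 on both FDC arrays, Cd40 on FDC array 2 (145%) and Cd80 on FDC array 2 (35.9%) lay above it. Icosl was above the range on FDC array 1 (20.9%) and inside it on FDC array 2 (11.2%), and Cd80 (9.95%) and Cd40 (10.8%) were inside it on FDC array 1. The part of leukocytes in these signals was not tested. Of 6 T cell markers 2 were called higher in FDC (Cd3d and Cd3g) and 0 lower, and the differences of the other 4 were positive without a call (1.21 to 2.12), with sums of 11954 and 5373 on the FDC arrays that Thy1, also a gene of fibroblasts, made up for the most part. Of 6 B cell markers 0 were called in either direction with limma, and their sums were 550 and 379 on the FDC arrays and 2677 and 676 on the BMDC arrays.

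**Figure D3:**
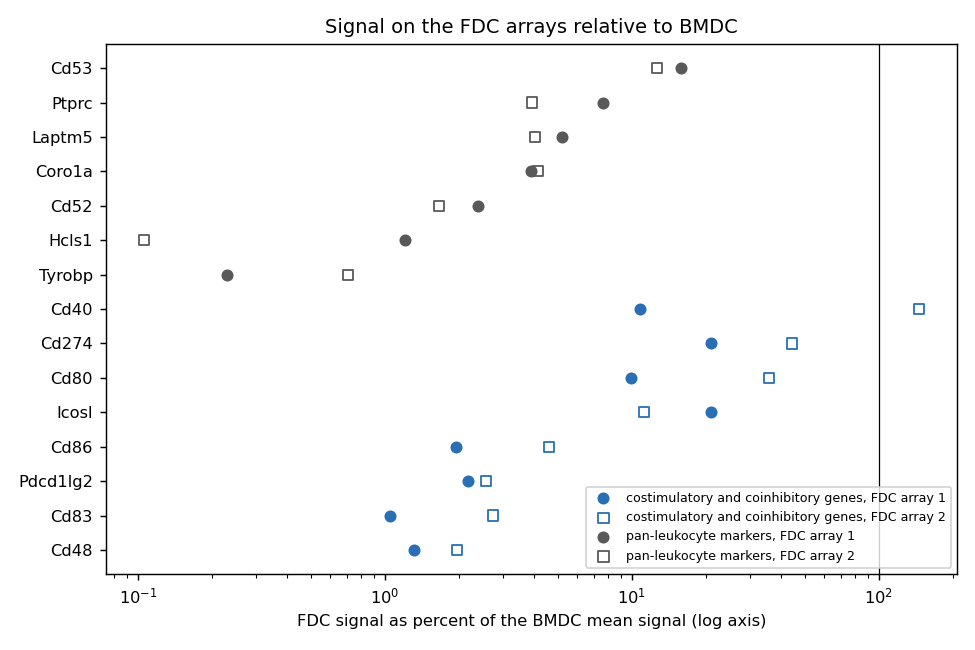
Signal on FDC array 1 (filled circles) and FDC array 2 (open squares) as percent of the BMDC mean (log axis), for the highest probe set of the 8 genes (blue) and for 7 pan-leukocyte markers (grey). The markers span 0.106% to 15.8%; Cd48, Cd83, Pdcd1lg2 and Cd86 fall in that span, Cd274 lies at 20.9% and 44.6%, and Cd40 moves from 10.8% to 145%.

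The BMDC arrays differed from each other in some of the genes and not in others. The genes of the Cd28 ligands were higher on array 2: Cd80 (1451950_a_at) by 7.97 times in signal and Cd86 (1420404_at) by 3.96 times. Icosl (1419212_at) was higher there by 2.56 times and Cd40 by 1.88 to 3.68 times over its 3 probe sets. Cd48, Cd83 and Cd274, in contrast, were within 0.826 to 0.958 times of array 1, and Pdcd1lg2 was at 1.38 times. In all, 7 of the 15 probe sets were higher on BMDC array 2 by more than 2-fold and 0 lower, beside 27.6% of all probe sets past 2-fold, 15.1% higher and 12.5% lower. These are single arrays with no test. Genes of dendritic cell maturation went along in part, with 6 of 12 past 2-fold higher and 1 lower, among them the chemokine Ccl17 (6416 and 58600) and Ccl22 (8256 and 27023). Of 7 costimulatory ligands of the TNF family 5 were past 2-fold higher and 1 lower, including Tnfsf4 (OX40 ligand), at 177 and 1314, and Tnfsf8, at 11.9 and 870. Of 9 MHC class II genes 0 were past 2-fold in either direction. Some markers of other cells were lower on BMDC array 2. Past 2-fold, 5 of 6 T cell genes were lower and 0 higher. The counts were 3 and 1 for 6 B cell genes and 2 and 0 for 6 mast cell genes. Among those lower were Cd22 (1199 and 224), Cpa3 (2621 and 396) and Fcer1a (1862 and 218), and their part was not tested. The T cell genes Cd3d (62 and 11.2), Cd3e (69.6 and 6.9), Cd3g (45.6 and 11) and Cd8a (37.7 and 11) fell from low signals to below background level. The ratio of labelling to hybridisation control signals was 0.0550 on BMDC array 1 and 0.253 on BMDC array 2, and its part in these differences was not tested.

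The FDC arrays also differed from each other. On FDC array 2, 9 of the 15 probe sets were higher by more than 2-fold and 0 lower, beside 30.2% of all probe sets past 2-fold, 14.8% higher and 15.4% lower. All 3 probe sets of Cd40 were among the 9, with log2 differences of 3.56, 3.11 and 4.50, as were both of Cd86, 2 of Cd80 and those of Cd83 and Cd274. Cd274 was higher by 2.13 times and Cd83 by 2.61 times in signal, while Pdcd1lg2 (1.19 times) and Cd48 (102 and 153) were within 2-fold. Icosl (1419212_at) was lower on FDC array 2, at 0.535 times in signal. Among 13 genes of interferon gamma and JAK-STAT signalling, which is known to induce Cd274, 2 were past 2-fold higher on FDC array 2 and 0 lower. This share is near the 14.8% of all probe sets given above, and the median difference of the list was -0.22. The 2 genes were the transcription factors Irf1 (3918 and 9096) and Stat2 (931 and 3344), and their part was not tested. The summed leukocyte markers were lower on FDC array 2 (5653) than on FDC array 1 (7008). The mast cell markers were split, with 3 of 6 past 2-fold higher on FDC array 2 and 0 lower. Their sums were 5657 on FDC array 1 and 8668 on FDC array 2. Cpa3 went from 1449 to 2968 and Fcer1a from 522 to 2481. The mast cell proteases Mcpt4 (909 and 823), Tpsb2 (1082 and 1036) and Tpsab1 (1651 and 1253) were slightly lower on FDC array 2. The part of these cells in the differences was not tested. The ratio of labelling to hybridisation controls was 0.0595 on FDC array 1 and 0.162 on FDC array 2, and its part was not tested.

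**Figure D4:**
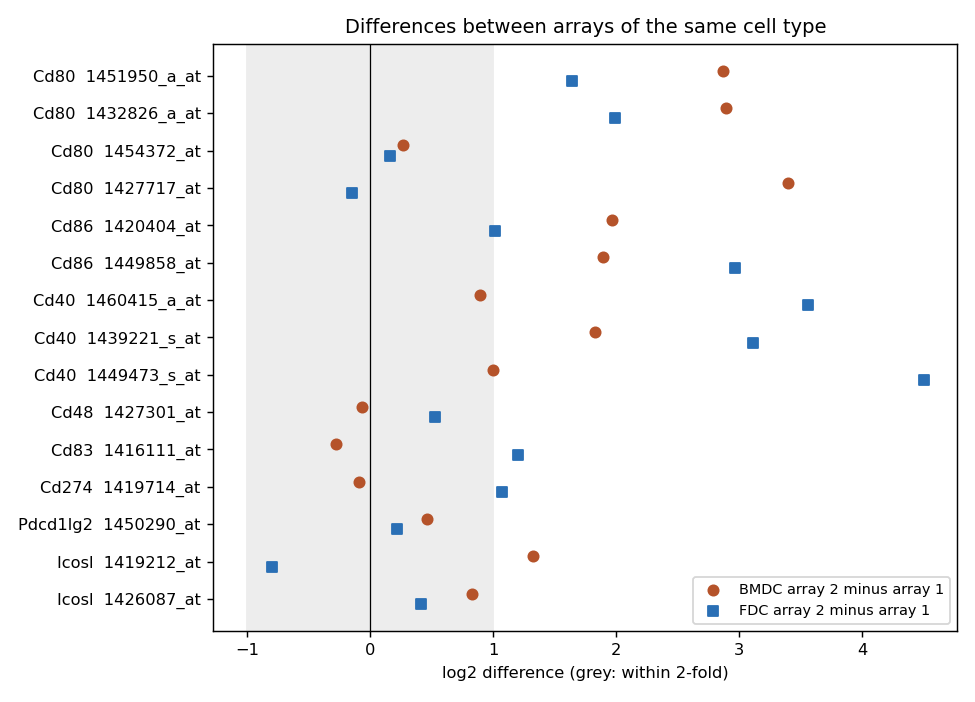
Log2 difference in signal between the 2 arrays of the same cell type, array 2 minus array 1, for the 15 probe sets, in BMDC (red circles) and FDC (blue squares); the grey band is within 2-fold. The Cd80 and Cd86 probe sets with clear signal lie right of the band in both cell types, while Cd48 and Pdcd1lg2 stay inside the band in both. All 3 Cd40 probe sets lie right of the band in FDC. In BMDC, 1460415_a_at (0.897) and 1449473_s_at (0.997) of Cd40 lie just inside it.

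In the FL-Y line the signals of these genes were low, below the median of all probe sets for 15 of 15 probe sets on FL-Y (61.1) and for 14 of 15 on activated FL-Y (47.9). On the FL-Y array the 15 signals lay between 2.4 and 58.6, and on the activated FL-Y array between 1.3 and 58.0. They were below the 20th percentile for 3 of 15 probe sets on FL-Y and for 7 of 15 on activated FL-Y, where 20% of all probe sets lie by construction. The clearest margins over the 20th percentiles of 12.1 and 8.7 were those of Icosl (1419212_at), at 58.6 and 58.0, and Cd274, at 51.7 and 46.8. For 11 of 15 probe sets both FL-Y arrays stood below both FDC arrays, beside 32.5% of all probe sets. By more than 2-fold from both FDC arrays, 7 of 15 were lower in FL-Y and 0 higher, beside 11.2% of all probe sets lower and 7.09% higher. The 7 were those of Cd48, Cd274 and Pdcd1lg2, 2 of Cd80 and 2 of Cd40. Cd274 was the farthest from its nearer FDC array, at log2 differences of -3.21 from FDC array 1 and -4.28 from FDC array 2, or 51.7 against 595 and 1268. Against both BMDC arrays, 12 of 15 were lower by more than 2-fold in FL-Y and 0 higher, beside 14.3% and 10.4% of all probe sets. FL-Y is a single array, so these are descriptions of the arrays. Of 9 class II genes, the summed signal was 459 on FL-Y and 354.6 on activated FL-Y, beside 2298 and 2254 on the FDC arrays. H2-DMa (179.6 and 106.3) and H2-Ab1 (75.7 and 85.3) were the clearest of them on the FL-Y and activated FL-Y arrays, and H2-Aa stood at 17.4 and 23.3.

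Activation through the lymphotoxin beta receptor was not accompanied by a rise of these genes past 2-fold. Of 15 probe sets 0 were higher and 3 lower, beside 4.8% higher and 10.7% lower of all probe sets. The 3 that were lower all went from low signals to below background level: Cd83 from 24.6 to 1.3, Cd40 (1460415_a_at) from 27.1 to 2.4 and Pdcd1lg2 from 28.3 to 4.7. With an offset at the 40th percentile 0 of 15 were past 2-fold, and with a floor in place of the offset 6 were, 1 of them higher. The highest difference was that of Cd80 (1451950_a_at), from 16.9 to 37.4, or 0.73 on the log2 scale. In plain signal this rise is past 2-fold, and it is the 1 counted as higher with the floor. Cd274 was at 51.7 and 46.8 and Cd48 at 17.4 on both arrays. The same arrays did differ in genes of CD40 and NF-kB signalling, which the lymphotoxin beta receptor also uses: 8 of 14 were past 2-fold higher and 0 lower. Among them were the inhibitor of apoptosis Birc3 (534 and 2931), the adaptor Traf1 (51.2 and 295), the inhibitor Nfkbie (274 and 1114) and the subunit Nfkb2 (1404 and 4026). The adhesion molecule Icam1 went from 115 to 789. Under the other scalings 7 to 9 of the 14 genes were past 2-fold higher and 0 lower. Rescaling the arrays to one median shifted the median difference of all probe sets from -0.08 to 0.19, and the counts for the 15 probe sets were then 1 higher and 3 lower. With quantile normalization they were 1 higher and 3 lower as well.

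**Figure D5:**
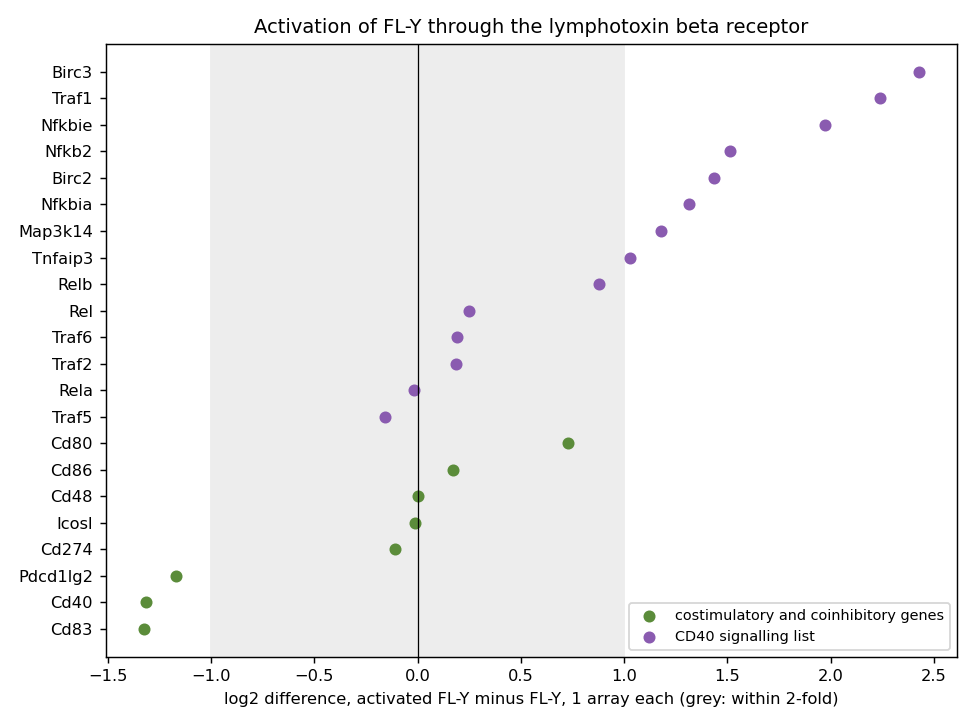
Log2 difference between the activated FL-Y array and the FL-Y array for the highest probe set of the 8 genes (green) and for 14 genes of CD40 signalling (purple); the grey band is within 2-fold. The 8 genes lie between -1.32 and 0.73, and 8 of the 14 signalling genes lie beyond 1, up to 2.43 for Birc3.

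The order of levels over the cells was the same for most genes. Cd48, Cd83, Cd86, Cd274, Pdcd1lg2 and Icosl (each by its highest probe set) had BMDC at the top, then FDC, then both FL-Y arrays. The FL-Y arrays had no shared order between them: on FL-Y and activated FL-Y, Cd86 was at 17.9 and 22 and Cd48 at 17.4 on both. For the 6 genes named the BMDC and FDC arrays did not overlap, and neither did the FDC arrays and the 2 FL-Y arrays. Both FDC arrays lay below both BMDC arrays for 7 of all 15 probe sets, beside 24.5% of all probe sets on the arrays. By their highest probe sets, Cd80 and Cd40 kept the FL-Y arrays last, but their BMDC and FDC arrays overlapped. Other probe sets of these genes did not all keep that order. With 1449473_s_at of Cd40, FL-Y (12.8) stood above FDC array 1 (6.3). The dim 1454372_at of Cd80 was highest on FL-Y, at 32.6. FL-Y and activated FL-Y had 1 array each, so their order has no spread to be read against.

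The pattern over the 6 arrays was compared with 12749 other genes by Pearson's correlation of log2 values, as a description, since arrays of a group hold the same kind of cell. Cd48 was most like Nckap1l (r = 1.00), Gpsm3 and Mmp8, and Pdcd1lg2 was most like Cd200r1 (0.999), AI413582 and Pik3r6. Cd83 was most like Arhgap4 (0.998), Tbxas1 and Nsun3, and Cd86 most like Bdh1 (0.999), P2rx5 and Stx7. Icosl was most like Alox15 (0.998), Sh3pxd2b and Rmnd5b, and Cd274 most like Usp11 (0.998), Cybc1 and Bin3. Cd80 was most like Mpp7 (0.996), Ecpas and Tars2, and Cd40 most like Chd2 (0.996), Nmt1 and Lsm10. Such likeness was common for the genes that were high in BMDC alone, since 589 genes had r over 0.95 with Cd48, 556 with Pdcd1lg2 and 530 with Cd83. It was rarer for Cd80 (44 genes) and Cd40 (79 genes). Between the genes themselves r was 0.99 for each pair of Cd48, Cd83 and Pdcd1lg2, and 0.67 between Cd40 and Icosl, the lowest of all pairs.

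The other genes of these pathways were read from lists that hold 101 genes, 92 of them measured and 86 tested. Counts of called genes in these lists, here and below, stand beside 5.4% of 12750 genes called lower in FDC and 5.87% higher. Of the 86, 27 were called lower in FDC and 4 higher (without BMDC array 1 the total was 20, and without BMDC array 2 it was 18, in place of 31). The SLAM family, to which Cd48 belongs, had 3 of 9 tested genes lower and 0 higher, with a median difference of -2.56. Cd84, a SLAM receptor that binds itself, was at 4209 and 1634 in BMDC and 32.5 and 49.1 in FDC, a difference of -5.60 ± 0.57 (SE; adjusted p = 0.00655 with limma). Slamf9 differed by -5.08 ± 0.81 (SE; adjusted p = 0.0219 with limma; 0.0682 without FDC array 1). The 9 tested genes of MHC class II were all called lower, with a median of -5.37, led by H2-Aa (-7.88) and H2-Eb1 (-7.49). Of 12 genes of dendritic cell maturation 5 were lower and 0 higher, with a median of -3.06, led by Ccl17 (-7.26; adjusted p = 0.0594 without FDC array 1) and Ccl22 (-5.84). All medians stand beside -0.03 for all genes tested.

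Other ligands, read as lists, stood differently. Of 8 tested genes of the list of other B7, butyrophilin and nectin ligands 1 was called higher in FDC and 0 lower, with a median of 1.31. Nectin3, an adhesion molecule, had 141 and 63.8 in BMDC and 568 and 1008 in FDC, and 679 and 711 on the FL-Y and activated FL-Y arrays. It differed by 2.81 ± 0.54 (SE; adjusted p = 0.0372 with limma), a call that was lost whichever array was left out and with array number as a block (adjusted p = 0.0675). Cd276 (B7-H3), a B7 relative that stromal cells express, was chosen after its values were seen: it had 561 and 158 in BMDC, 660 and 1037 in FDC, and 639 and 492 in FL-Y and activated FL-Y. Its difference of 1.42 ± 0.67 (SE; adjusted p = 0.290 with limma) did not pass. Of 6 tested TNF family ligands 0 were called with limma in either direction, and their median difference was 0.02. The largest difference was that of Tnfsf13b (BAFF), a survival factor of B cells, at 2.96 ± 0.85 (SE; adjusted p = 0.107 with limma), with 137 and 547 in BMDC and 4004 and 1265 in FDC. Tnfsf4 and Tnfsf14, chosen after their values were seen, went the other way without a call. They differed by -2.86 ± 0.94 and -1.95 ± 0.51 (SE; adjusted p = 0.144 and 0.0872 with limma).

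Receptors that bind the ligands were also listed. Of 6 tested receptors Ctla4 alone was called, higher in FDC by 3.40 ± 0.47 (SE; adjusted p = 0.0153 with limma; 0.0594 without BMDC array 1), and it did not pass the filter on low signal without either FDC array. Its signals were 2.4 and 13.3 in BMDC, below background level, and 166 and 270 in FDC, beside the T cell transcripts given above, whose part was not tested. Of 9 adhesion genes of the T cell contact 5 were lower and 1 higher in FDC, with Itgb2 at -6.27 and Icam2 at -3.31 against the tetraspanin Cd81 at 1.99. Of 14 genes of CD40 signalling 3 were lower and 0 higher, among them Traf1 (-3.06) and Rel (-2.97). Of 13 genes of interferon gamma and JAK-STAT signalling the receptor chain Il4ra was higher (2.10 ± 0.43, SE) and Cmtm6, which keeps PD-L1 protein at the membrane, was lower (-1.77 ± 0.37, SE). Of 4 tested genes of the turnover list, the receptor chain Il10ra was lower (-4.73), with signals of 5.1 and 6.2 in FDC that are below background level, and it did not pass the filter without either BMDC array. Marchf1, the ligase that removes Cd86 and class II from the surface, differed by -4.34 without a call. Without 1 array, Cd81, Il4ra and Cmtm6 lost their call in all 4 cases, and they lost it with array number as a block (adjusted p = 0.0621, 0.0645 and 0.0605 with limma). Traf1 and Rel lost theirs without BMDC array 2 or FDC array 1.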

How the data were processed

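The deposited table holds linear intensity values (signal) for 45101 probe sets on 6 arrays, 64 of them controls. The values show a common trimmed mean (2% at each end), so the authors had scaled each array before deposit. Program and background correction: not given in the sources used here. Probe sets were named from the platform annotation (34945 with 1 gene, 932 with several, 9160 unnamed), and probe sets with several genes were not used.

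Signals entered as log2(signal + 14.2), where 14.2 is the median over arrays of the 20th percentile. Probe sets above the 40th percentile of the mean over the FDC and BMDC arrays entered a linear model per probe set (limma 3.58.1, R 4.3.3) with moderated variances from eBayes, on 2 residual plus 3.35 prior degrees of freedom. Its two-sided p-values were adjusted over 27022 probe sets (Benjamini-Hochberg). Tested on simulated data, the fit gave nearly all known changes their right sign, but it called only part of the largest and none of the smaller ones. Far fewer probe sets were changed there than the 2413 called here, which makes the adjusted threshold harder to pass. The shares called in the simulation therefore do not carry over to these data. A missing call does not show that groups are alike. With 2 arrays a group, the number of arrays limits the precision. FL-Y comparisons have 1 array and no test: a difference past 1 on the log2 scale, either way, was counted. No exact permutation test of 2 against 2 could pass the threshold.

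The genes and lists were chosen with earlier results of these data known. Genes named are the 8 genes, up to 2 called genes in each direction of each pathway list (or the largest difference), the 3 most alike in pattern, and others said to be chosen after their values were seen or given as array markers or as examples of single-array differences. Of the listed genes, 9 were not analysed here. Alternatives changed the offset, scaling, filter and samples, or added array number as a block.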

Additional observations from a re-analysis of the deposited data

How the results depend on the processing

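Of the 15 probe sets, 5 were called in FDC against BMDC, 3 when signals were floored at 3.1, the 5th percentile, instead of offset, and 3 without the filter. Leaving out 1 array gave 3 to 6. For all probe sets these numbers were 2413, 1443 and 1433, with 1312 to 2090 without 1 array. The count of 31 pathway genes became 18 to 25 without 1 array. Cd48, Cd83 and Pdcd1lg2 kept their call and their direction under every alternative run, with differences of -6.07 to -5.46, -6.26 to -5.06 and -5.46 to -4.86. Cd274 was uncalled under all of them (-2.23 to -1.16), as was Cd80 (-3.06 to -0.19). Cd40 reversed to 0.60 without FDC array 1 and was -2.96 without FDC array 2. Activation of FL-Y counted 3 of 15 past 2-fold, 6 with the floor and 0 with an offset at the 40th percentile (52.3); FL-Y against FDC counted 7, and 3 with that offset. Array number as a block, a choice made from control probe sets, left 5 probe sets and 4 genes called. No label names a batch, and whether arrays of the same number were processed together is not known. The title of the first BMDC array carries no number, so the labels give no pairs. Depth is not known for arrays; signals near 8.7 to 15.4 cannot be told from background.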
